A study of Drosophila melanogaster with 2 samples.

Results

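Cytosolic ribosomal protein genes were taken as the protein-coding genes whose symbol starts with RpL or RpS and a digit, which gave 88 genes among 13945 protein-coding genes on chromosomes X, 2, 3 and 4 of Drosophila melanogaster. The rule used gene names only. By symbol, 50 of the genes (RpL) were counted to the large ribosomal subunit and 38 (RpS) to the small subunit. Whether each protein, such as those of the genes named "-like", is part of the ribosome was not checked. The question put to the peak lists was at which of these genes the T-box factor Doc2 was detected, at what distance from the start site, and how repeatably. The assay was ChIP-seq, in which chromatin fragments bound by a protein are recovered with an antibody and their DNA is sequenced. The chromatin came from whole Drosophila embryos collected over 0 to 18 h from 1 transgenic line with a Doc2-eGFP fusion, recovered with an antibody against GFP and sonicated to 200 to 800 bp. The labels do not state which promoter drives the fusion. There was 1 group of 2 biological replicates and no second genotype or treatment, so members are set beside all genes and each replicate beside the other. The embryos were pooled over tissues and stages, so a site used in few cells and a weak site used in many cells cannot be told apart. Each peak was given to the protein-coding gene whose transcription start site (TSS) is nearest to the peak's summit.

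Ribosomal proteins and ribosomal RNA together form the machine that translates every messenger RNA, and a fly that lacks 1 copy of many of these genes has the slow development and thin bristles of the Minute phenotype. Many ribosomal protein genes of flies start transcription at a pyrimidine-rich initiator, the TCT element, which is used with the TBP-related factor Trf2 in place of TBP. The DNA replication-related element (DRE) and the site of M1BP (motif 1) are other promoter elements known from genes that most cells transcribe. Doc2 is a Dorsocross protein known from the amnioserosa, the dorsal ectoderm and the heart, tissues that are only a part of the whole embryo.

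Promoter sequences are printed for the members with a thresholded peak in the list of each replicate, and for 1 paralogue. They run from 150 bases before the TSS nearest to the summit through the first 10 transcribed bases. They are on the strand of the gene, from the Release 6 genome (dm6). RpS27, RpL32, RpL34b, RpL23A and RpS25 are the members whose series peak met a thresholded peak of both replicates. RpS21 had a peak in the conservative list and in the list of each replicate, and RpL34a is the paralogue of RpL34b. Capitals mark a TCT initiator (CTTTC or CTTTT) in RpL32, RpL34b, RpL23A and RpS25, and a DRE (TATCGATA) in RpS25 and RpL34a. They also mark a T-box site (TCACACC, the reverse complement of GGTGTGA) in RpL32 and an E-box (CAGCTG) in RpS27 and at 2 places in RpS21. The 6-mer ACAGTG is marked in RpL34b and RpL23A. In RpL32 a second CTTTT farther downstream, also with its C within 5 bp of the TSS, was left in lower case.
RpS27 (chr3R:25247505-25247664, minus strand): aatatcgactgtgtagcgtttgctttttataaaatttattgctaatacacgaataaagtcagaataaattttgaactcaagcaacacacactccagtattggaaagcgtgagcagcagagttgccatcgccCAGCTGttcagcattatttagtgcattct
RpL32 (chr3R:30046152-30046311, minus strand): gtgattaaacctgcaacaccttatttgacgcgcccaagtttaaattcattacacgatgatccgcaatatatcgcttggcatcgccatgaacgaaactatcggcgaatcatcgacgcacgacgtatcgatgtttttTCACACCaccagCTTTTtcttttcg
RpL34b (chr3R:9401217-9401376, minus strand): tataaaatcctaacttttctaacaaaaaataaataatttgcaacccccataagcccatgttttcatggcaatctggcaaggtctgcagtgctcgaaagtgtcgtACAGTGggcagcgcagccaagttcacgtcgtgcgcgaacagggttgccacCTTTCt
RpL23A (chr3L:1668645-1668804, minus strand): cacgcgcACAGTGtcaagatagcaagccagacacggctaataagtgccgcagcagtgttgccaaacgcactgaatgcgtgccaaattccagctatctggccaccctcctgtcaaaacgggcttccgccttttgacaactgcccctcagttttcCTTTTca
RpS25 (chr3R:11216278-11216437, minus strand): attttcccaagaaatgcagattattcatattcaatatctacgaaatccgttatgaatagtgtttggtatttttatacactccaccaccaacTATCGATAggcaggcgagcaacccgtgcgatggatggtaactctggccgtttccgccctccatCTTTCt
RpS21 (chr2L:2855920-2856079, plus strand): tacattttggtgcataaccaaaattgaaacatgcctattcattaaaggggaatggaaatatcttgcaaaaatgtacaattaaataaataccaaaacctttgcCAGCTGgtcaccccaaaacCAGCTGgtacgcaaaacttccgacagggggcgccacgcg
RpL34a (chr3R:26059258-26059417, minus strand): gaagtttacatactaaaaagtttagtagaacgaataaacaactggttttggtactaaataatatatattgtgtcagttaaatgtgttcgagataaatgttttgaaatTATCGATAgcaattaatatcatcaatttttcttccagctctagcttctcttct

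Of the 88 members, 12 (13.6%) had the nearest TSS to a peak of the series list, against 968 of all 13945 genes (6.94%). The series list held 1230 peaks from the alignments of both replicates, of which 1140 lay on these chromosomes and were used. All 12 member peaks had their summit within 500 bp of the TSS, and by that rule the share was 13.6% of members and 3.50% of all genes (488 genes). Every member peak was thus a promoter peak. In the conservative list, which in ENCODE's usual processing rests on a comparison of the replicates with each other, 10 members (11.4%) had such a promoter peak, against 473 of all genes (3.39%). In the list of replicate 1 there were 10 members (11.4%), against 406 genes (2.91%). In the list of replicate 2 there were 7 members (7.95%), against 251 genes (1.80%). The share of members was thus higher than that of all genes in each of the 4 thresholded lists, which come from the same 2 replicates. Of the large subunit genes 9 of 50 (18.0%) had a series peak, and of the small subunit genes 3 of 38 (7.89%), a difference that was not tested. It was narrower in each of the other thresholded lists. The conservative list, for example, lacked RpL17, RpL22, RpL23 and RpS28b and added RpS21 and RpS5a. The members with a series peak lay on every large arm, with 3 of the 14 genes on X, 1 of 18 on 2L, 2 of 19 on 2R, 2 of 13 on 3L and 4 of 23 on 3R.

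**Figure D1:**
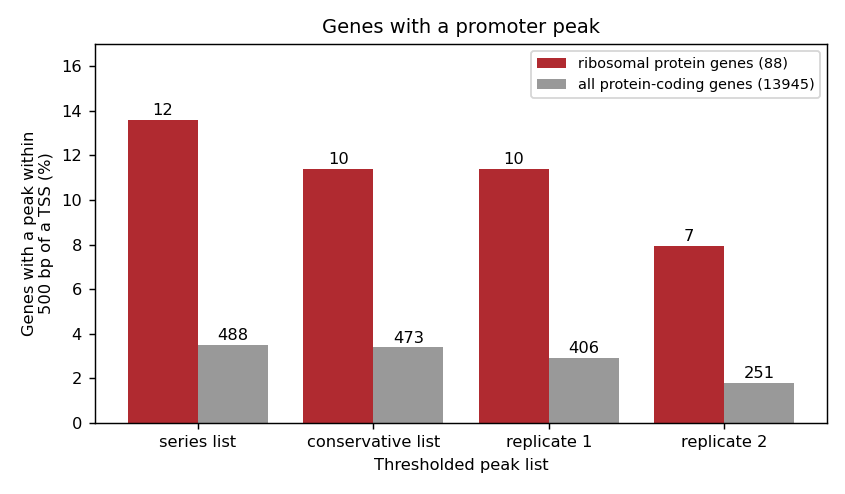
Share of genes (%) with a peak summit within 500 bp of a TSS in each thresholded list, for the 88 ribosomal protein genes (red) and for all 13945 protein-coding genes (grey), with the number of genes above each bar. The red bars stand at 13.6%, 11.4%, 11.4% and 7.95% and the grey bars at 3.50%, 3.39%, 2.91% and 1.80%.

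Before thresholding the picture was different. The ranked list that contains the series list held 140206 peaks on these chromosomes, and 62 members (70.5%) were nearest to at least 1 of them, against 11245 of all genes (80.6%). Within 500 bp of a TSS, 47 members (53.4%) had a ranked peak, against 8199 of all genes (58.8%). The share of members with any ranked peak was thus below that of all genes, while the share with a thresholded peak was above it. Ribosomal protein genes lie in gene-dense sequence: the stretch of genome nearest to the TSS had a median of 2054 bp for members and 4328 bp for all genes, and the median number of ranked peaks was 2 per member and 4 per gene. No ranked peak was nearest to 26 members, and 15 had ranked peaks only beyond 500 bp.

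The signal is the value that the authors' peak caller gave each peak, with no stated scale, so it ranks peaks within a list, and ratios between replicates are set beside the ratio at all series peaks. RpL32, known as a reference gene for expression studies in flies, had the second highest peak of the members, on 3R from 30046126 to 30046475. Its signal was 224 in the series list, 109 in the list of replicate 1 and 112 in that of replicate 2, with the summit 140 bp upstream of the TSS. RpL34b had 217 over both replicates, 132 in replicate 1 and 93.3 in replicate 2, on 3R from 9401209 to 9401324, with the summit 53 bp upstream. RpL23A, whose protein lies at the exit of the tunnel through which new polypeptides leave the ribosome, had 161 over both replicates, 84.1 in replicate 1 and 83.8 in replicate 2, on 3L from 1668588 to 1668937, 109 bp upstream. These 3 large subunit genes were in every thresholded list, and the replicates were nearly level at RpL32 and RpL23A.

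The other 6 large subunit peaks were lower, and none of them was in every thresholded list. RpL14 had a signal of 110.0 in the series list and 53.5 in the thresholded list of replicate 1, on 3L from 8600795 to 8601144, 36 bp upstream. In replicate 2 it reached 56.4 in the ranked list but missed the threshold, with a score of 802 against a lowest score of 830 in the thresholded lists. The score is a scaled irreproducible discovery rate (IDR), with 1000 as its highest value and with an IDR of 0.01 at the threshold. RpL19 had 95.8 in the series list, with 50.2 and 47.5 in the ranked lists of replicates 1 and 2, and RpL30, whose yeast counterpart regulates splicing of its own transcript, had 87.8, with 42.0 and 45.9. RpL23, which forms part of the face that joins the small subunit, had 76.7 in the series list, with 37.0 and 35.6. Those 3 genes had similar values in the replicates and were in the thresholded list of neither, so they passed only in lists made from both replicates. RpL19 and RpL30 were in the series and the conservative list. RpL23 was in the series list alone, with a score of 820 in the ranked list that contains the conservative list. Their summits lay 26, 35 and 67 bp upstream, on 2R for RpL19 and RpL23 and on 2L for RpL30.

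The X-linked genes RpL17 and RpL22 differed from those between the replicates. RpL17, at the polypeptide exit tunnel, had 80.7 in the series list, 59.5 in the thresholded list of replicate 1 and 27.5 in the ranked list of replicate 2, where its score was 153. RpL22 had 78.7 in the series list, 57.0 in the thresholded list of replicate 1 and 26.2 in the ranked list of replicate 2, where its score was 31. The signal in replicate 1 was 2.16 times that in replicate 2 at RpL17 and 2.18 times at RpL22, the highest ratios of the members, against a median of 1.29 over all series peaks. Their summits lay 73 bp and 76 bp upstream. Neither was in the conservative list, since in the ranked list that contains it their scores were 693 and 623.

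Among the small subunit genes, RpS27 had the highest signal of all members, on 3R from 25247443 to 25247608 with the summit 30 bp upstream. It had a signal of 301 over both replicates, 166 in replicate 1 and 120.4 in replicate 2, and it was rank 77 of the 1140 series peaks and the 1 member among the top 100. RpS25, needed in yeast and mammalian cells for initiation at some viral internal entry sites, had 106 over both replicates, 54.0 in replicate 1 and 53.7 in replicate 2, on 3R from 11216139 to 11216488, 27 bp upstream. Both genes were in every thresholded list. RpS28b, an X-linked gene with a paralogue on 3R, had 144 in the series list and 83.4 in the list of replicate 1, from 9554415 to 9554764, 33 bp upstream. No peak of the ranked list of replicate 2 overlapped it, and it was absent from the conservative list and from the ranked list that contains that list. It thus passed in replicate 1 and in the series list only.

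In all, 15 members had a peak in at least 1 thresholded list, and 3 of these were outside the series list. RpS21, whose loss in flies causes overgrowth of the hematopoietic organs, had a signal of 151 in the conservative list, 77.9 in replicate 1 and 68.6 in replicate 2, with summits between 11 bp upstream and 9 bp downstream of its TSS. It was thus in the thresholded list of each replicate, and yet no peak of the series list or of the ranked list that contains it overlapped this site. RpS5a, on X, had 92.8 in the conservative list, 125 bp upstream, with 39.6 and 41.3 in the ranked lists of replicates 1 and 2. RpL41, a very short peptide of the large subunit, had 56.7 in the thresholded list of replicate 2, 85 bp upstream. In the ranked list of replicate 1 a peak of 52.2 overlapped this site, with its summit nearer to the TSS of another gene. A series peak of signal 107 overlapped the RpL41 site, but its summit was 73 bp from the TSS of NaCP60E and 109 bp from that of RpL41. By the same rule a series peak of signal 122 went to CG17271, 163 bp away, with the TSS of RpS20 170 bp away.

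**Figure D2:**
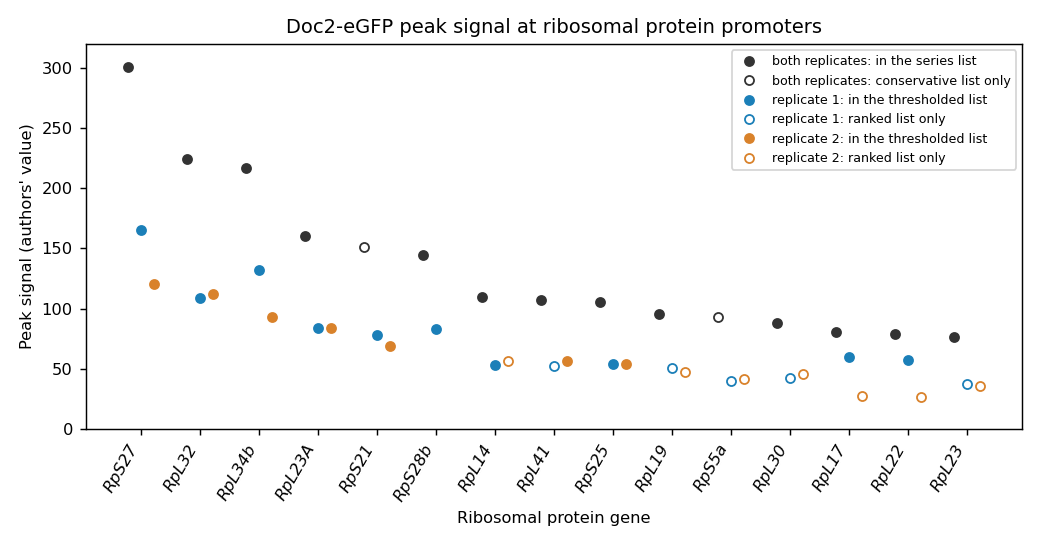
Peak signal (the authors' value, y axis) at the 15 ribosomal protein genes with a thresholded peak in any list, ordered by the value from both replicates (black), with replicate 1 in blue and replicate 2 in orange. Filled points were in the thresholded list and open points only in the conservative or a ranked list. The black point at RpL41 is the series peak nearer to NaCP60E, and the blue point there also has its summit nearer to another gene. RpS28b had no ranked peak in replicate 2.

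Over the 12 members with a series peak, 5 (41.7%) met a thresholded peak of both replicates, against 228 of the 491 other series peaks within 500 bp of a TSS (46.4%). Replicate 1 met 9 of the 12 (75%), against 384 of the 491 (78.2%), and replicate 2 met 5 (41.7%), against 245 (49.9%). The 3 members met by neither replicate were 25%, against 90 of the 491 (18.3%). Each of these shares was within 1 peak of 12 of the share at the other promoters. All 3 X-linked members were met by replicate 1 and missed by replicate 2. Over all series peaks on X, replicate 1 met 73.3% and replicate 2 met 43.1%, against 60.8% and 38.0% on the autosomes. The median ratio of replicate 1 to replicate 2 was 1.30 on X and 1.28 on the autosomes. It covers only series peaks with a ranked peak in both replicates, which leaves out RpS28b. RpS5a, also on X, had a ratio of 0.959. Whether the gap at RpL17 and RpL22 goes with the X chromosome was not tested. At the 14 member sites with a ranked peak in both replicates, 9 were higher in replicate 1, with a median ratio of replicate 1 to replicate 2 of 1.02 (range 0.916 to 2.18). Over all 1112 series peaks with both values, 856 (77.0%) were higher in replicate 1, with a median ratio of 1.29. These sets are not alike, since the 14 sites include RpS21, RpS5a and RpL41, which had no series peak of their own. Their ratios were 1.135, 0.959 and 0.92, and RpL41 was included through the list of replicate 2 alone. Across the 14 sites Spearman's rho between the replicates was 0.701, a description across sites that share both libraries.

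In the series list all 12 members' summits lay upstream of the TSS, in intergenic sequence and within 150 bp. Of the 491 other promoter peaks, 417 (84.9%) were upstream, 223 (45.4%) were within 150 bp upstream and 262 (53.4%) were intergenic. The median position was -44.5 bp for the members and -125 bp for the other promoter peaks. The summits ran from 26 bp upstream at RpL19 to 140 bp upstream at RpL32, with those of RpL32, RpL23A and RpL22 the farthest from the TSS. Some summits were placed differently in the ranked lists of replicates 1 and 2. RpL14, at -36 bp in the series list, was at 3 bp and 11 bp, and RpL23, at -67 bp, was at -116 bp and -89 bp. RpS27, at -30 bp, was at -30 bp and -31 bp. The median signal was 108 for the members and 127 for the other promoter peaks, with 105 for all series peaks, and 7 of the 12 members were above this last value. The members' peaks were thus in the middle of the signal range and close to the start site.

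**Figure D3:**
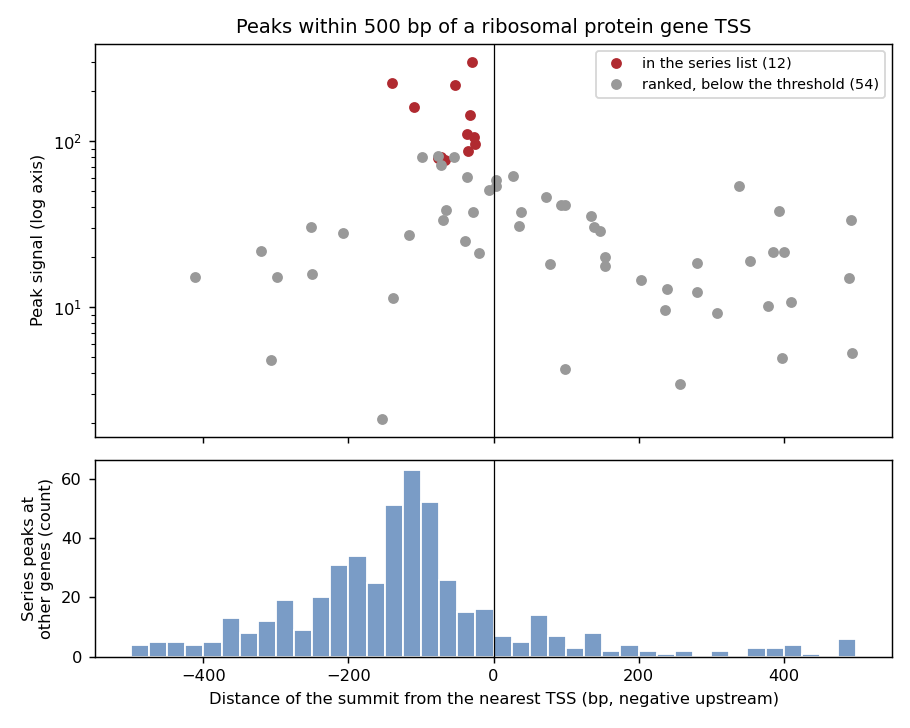
Upper panel: peak signal (log axis) against the signed distance of the summit from the nearest TSS (bp, negative upstream) for the 12 series peaks (red) and 54 ranked peaks below the threshold (grey) within 500 bp of a ribosomal protein gene TSS. Lower panel: number of the 491 series promoter peaks at other genes by the same distance; the red points all lie between -140 and -26 bp.

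Several summits also lay near the start site of a neighbouring gene. Another gene's TSS lay within 500 bp of the summit for 7 of the 12 (58.3%), against 198 of the 491 other promoter peaks (40.3%). For RpS27 it was Nup37, a nuclear pore gene, 114 bp from the summit, for RpL14 Nelf-E, a subunit of the factor that pauses RNA polymerase II, at 91 bp, and for RpL19 CG3776 at 105 bp. For RpL32 it was CG7943 at 169 bp, for RpL34b CG8132 at 216 bp, for RpS25 CG4820 at 221 bp and for RpL23 CG13531 at 489 bp. Each of these neighbours lies on the opposite strand, so the summit is upstream of both genes. Which gene of such a pair a peak belongs to was not tested. At RpS28b, RpL30, RpL23A, RpL17 and RpL22 the next TSS was between 840 bp and 4739 bp away.

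RpL23 and RpL30 had the lowest scores of the members that passed, 887 and 897. Among members with ranked promoter peaks only, the 6 with the highest signal were RpL28 (81.2, score 751, 76 bp upstream), RpL10Ab (80.2, score 589, 55 bp upstream), RpL34a (79.8, score 575, 98 bp upstream), RpS12 (71.7, score 286, 72 bp upstream), RpS15Aa (62.0, score 464, 27 bp downstream) and RpS19a (61.2, score 253, 37 bp upstream). RpL28 had the score nearest to the threshold, and RpS12 and RpS19a were far from it, below RpS7 (53.7, score 521) and RpS14b (58.0, score 508), which are named here after their values were seen. RpL28, RpL10Ab and RpL34a had a higher signal than RpL22 and RpL23, which passed. RpS12 is known in flies for its part in the elimination of Minute cells by their neighbours, and RpL10Ab belongs to the mobile L1 stalk of the large subunit. In all, 54 member peaks within 500 bp of a TSS were below the threshold, with a median signal of 23.3, against 23.1 over 13291 such peaks of all genes. Of these, 21 (38.9%) were upstream, against 39.0% over all genes, so the weak peaks at ribosomal protein genes were close to those of all genes in signal and position. A ranked peak given to RpL5, 31216 bp from its TSS, had a signal of 79.0 and a score of 933, over the threshold, but was not in the series list.

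Families of paralogues were taken because 1 copy had a thresholded peak or was among the members next by ranked signal. A lower value at another copy is thus partly a result of that choice. RpL34b had a signal of 217 and RpL34a, below the threshold, 79.8. RpS28b had 144, RpS28a had 41.2, 98 bp downstream, and RpS28-like had no ranked peak. RpL22 had 78.7, against 9.19 for RpL22-like, known mainly from the germ line. RpS5a had no peak in the series list, as given above, while its germ-line paralogue RpS5b had a ranked peak of 30.4, 139 bp downstream. RpL10Ab had 80.2 and RpL10Aa 15.2, and neither RpS15Ab nor RpS19b had a ranked peak, against 62.0 for RpS15Aa and 61.2 for RpS19a. The copies in a thresholded list were RpL34b, RpS28b, RpL22 and RpS5a, while the RpL10A, RpS15A and RpS19 families had none. Since only 15 of the 88 members had a thresholded peak, few families would have such a peak at more than 1 copy. Whether paralogues differed more than other members was not tested. Copies with nearly the same sequence can lose reads that match both, and the part of this in the values was not tested.

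The TCT initiator, taken as CTTTC or CTTTT on the gene's strand with its first C within 5 bp of a TSS, was found at 55 of the 88 members (62.5%), against 716 of all 13945 genes (5.13%). The count depends on the definition, with 18 members (all genes: 2.04%) for a C within 2 bp and 30 (3.47%) with 1 TSS per gene. Of the 12 members with a series peak 8 had it, of the 15 with any thresholded peak 10, and of the 73 others 45. RpS28b, RpL17, RpL22 and RpL23 had a series peak and no TCT by this definition. Over all 716 genes with a TCT, 48 (6.70%) had a series peak within 500 bp, a count that includes the members. At RpS27, RpL19, RpL30 and RpS21 the TCT lies at a start site farther downstream than the one nearest to the summit, so that the summit was 72, 64, 104 and 32 bp upstream of the TCT start site.

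Motifs were searched as exact letters on both strands within 100 bp of summits, and in promoters from 250 bp before to 50 bp after the TSS. For promoters this was the outermost TSS of each gene, while the TCT was searched at every TSS, so the 2 kinds of share have different bases. The DRE (TATCGATA) was within 100 bp of 2 of the 12 member summits (16.7%), those of RpL19 and RpS25, against 20 of the 491 other promoter summits (4.07%) and 23 of all 1140 series summits (2.02%). In promoters it was found at 28 of the 88 members (31.8%) and 9.36% of all genes, and among members at 3 of the 15 with a thresholded peak (20%) and at 25 of the 73 without (34.2%). The M1BP site (GGTCACACT) was at none of the 12 summits, against 1.02% of the other promoter summits, and in 9.09% of member promoters and 6.05% of all promoters. The DRE was thus common at ribosomal protein promoters with or without a peak.

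The T-box site GGTGTGA, a sequence that T-box proteins are known to bind, was within 100 bp of 1 of the 12 summits (8.33%), that of RpL30, against 1.22% of the other promoter summits and 1.58% of all series summits. In promoters it was found at 6 members (6.82%), against 2.87% of all genes, and among members at 3 of the 15 with a thresholded peak (20%) and at 3 of the 73 without (4.11%). Among these, RpL23, RpL30 and RpL32 had a series peak. In RpL32 it lay 12 bp upstream of the TSS and next to the TCT, while the summit was 140 bp upstream. The higher share at members with a peak rests on 3 genes and was not tested. ACAGTG, the 6-mer known from an earlier look at these same peaks, was within 100 bp of the summits of RpL17, RpL23A and RpL34b (25%), against 21.0% of the other promoter summits and 22.6% of all series summits, and it was in 20.5% of member promoters and 13.9% of all promoters. TTAAAA was at 3 of the 12 summits (25%), against 53.6% of the other promoter summits, while in promoters it was found at 60.2% of members, 66.7% of members with a thresholded peak and 53.4% of all genes. The E-box CAGCTG was at 1, that of RpS27 (8.33%), against 10.2% of the other promoter summits, and in 9.09% of member promoters and 17.7% of all promoters. TTAAAA was thus less frequent within 100 bp of the members' summits than of other promoter summits, but not less frequent in their promoters. Of the sites of other factors, GAGAGA, for GAGA factor, was at none of the 12 summits, against 8.35% of the other promoter summits, and in 3.41% of member promoters and 12.3% of all promoters. CAGGTA, for Zelda, was at 1, that of RpL23, against 2.65% of the other promoter summits, and in 4.55% of member promoters and 6.24% of all promoters, and GATAAG, for GATA factors, at 1, that of RpL22, against 8.35% of the other promoter summits, and in 18.2% of member promoters and 18.9% of all promoters. TTAAAA can overlap itself and GATAAG can overlap the DRE, and a motif that was not found says only that these letters are not in the window.

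The members' summits were richer in G and C than other promoter summits. Within 50 bp of the summit the median GC content was 49.5% for the 12 members (range 34.7% to 61.4%), against 31.7% for the 491 other promoter peaks and 34.7% for all series peaks. It was highest at RpL22 (61.4%), RpL34b and RpS28b (55.4% each), and RpL30 (38.6%) and RpL23 (34.7%) were the 2 members below 40%. From 95 bp before to 5 bp after the TSS, the median was 44.6% for the 12 members with a series peak, 41.6% for the 76 without and 41.6% for all genes. The part of GC content and of the summit's closeness to the TSS in the signal was not tested.

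**Figure D4:**
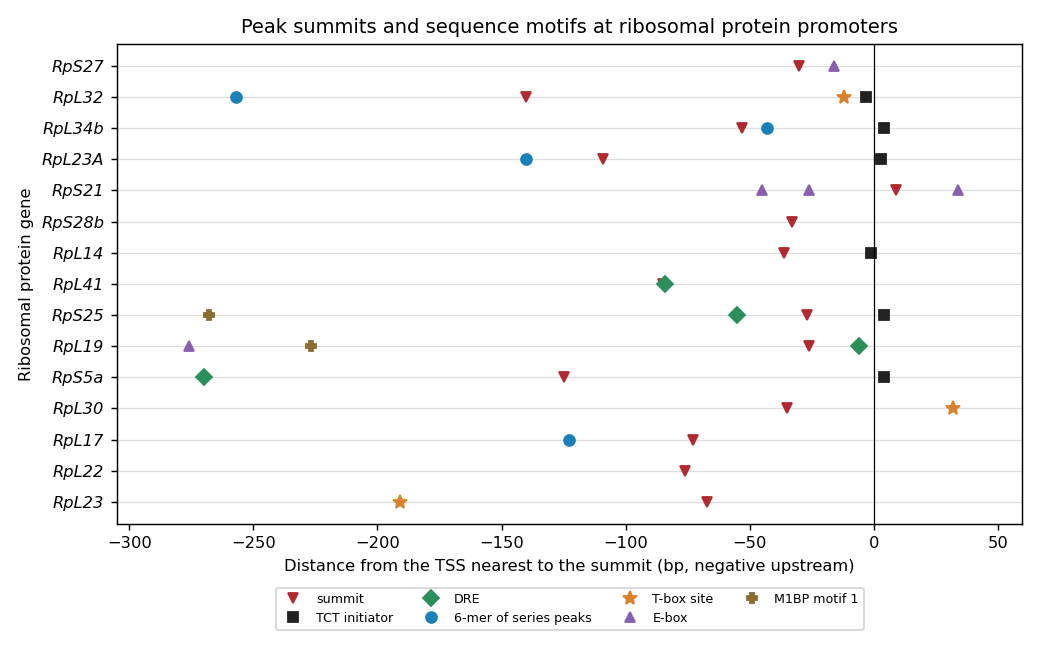
Positions (bp from the TSS nearest to the summit, negative upstream) of the peak summit and of exact sequence matches at the 15 ribosomal protein genes with a thresholded peak in any list. Summits lie between -140 and 9 bp. TCT initiators (black squares) are drawn only where they lie at that TSS, so those of RpS27, RpL19, RpL30 and RpS21 at a farther start site are not shown. A single TCT is drawn per gene, also at RpL32, where another match lies near the TSS.

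Other genes of ribosome production and translation were set beside the members. Of 5 further genes with other symbols, listed by name as cytosolic ribosomal protein genes, 1 had a series promoter peak. It was RpLP0, a protein of the stalk that recruits elongation factors, with a signal of 127, 37 bp upstream of its TSS. Of 73 mitochondrial ribosomal protein genes 2 had one (2.74%), mRpL41 (815, 119 bp upstream) and mRpL23 (539, 59 bp downstream), both with a signal above every cytosolic member. A series peak of 84.3 given to mRpS5 lay 28773 bp from its TSS. Of 48 proteasome genes 1 had a promoter peak (2.08%), Rpn3, a subunit of the regulatory lid (74.2, 50 bp downstream).

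Of 44 initiation factor genes 3 had a promoter peak (6.82%). They were eIF6, which keeps the large subunit from joining too early (657, 102 bp upstream), eIF3c (126, 46 bp upstream) and eIF5B, which promotes subunit joining (86.3, 163 bp upstream), and a peak of 115 given to eIF4B lay 207245 bp away. Of 19 ribosome assembly genes 1 had a promoter peak, again eIF6, and a peak of 121 given to Ns1 lay 7558 bp away. Of 9 elongation and release genes 1 had a promoter peak, eEF1gamma (110.0, 4 bp upstream), which also had a peak of 233 at 5732 bp. Of 8 factors known at ribosomal protein promoters 1 had a promoter peak, Chro (631, 97 bp downstream), and none of 7 RNA polymerase I genes had a series peak. The shares of these lists rest on 0 to 3 genes each and are not read as different from the 3.50% of all genes.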

How the data were processed

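Doc2-eGFP ChIP-seq peaks were available for 1 group of 2 biological replicates, as numbered in the labels. The signal of each peak, its score (scaled IDR, at most 1000) and, in ranked lists, the −log10 of the IDR are the values the authors deposited. Per the deposited notes, the build is dm6 and a control was used, whose library was not analysed here. Aligner, peak caller and settings are not stated in those notes or the labels. Read depth is unknown from these files, so no counting interval is given.

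Peaks on chromosome Y and unplaced sequence (90 of the 1230 in the series list) were left out. Positions are 1-based, and a replicate peak met a series peak with at least 1 bp of overlap. Gene models were those of Ensembl release 115 and bases those of RefSeq Release 6, the same assembly. RACK1, eIF5A and Taf1B were not matched to a current symbol. The genes named were every member with a thresholded peak in any list, the 6 next by ranked signal, their paralogues and every companion gene with a series peak. The members, lists and motifs were chosen with earlier results of these data known. Members are described by counts and medians beside all genes or peaks, and no test was run. As alternatives, the conservative list, single replicates, stricter thresholds and other distances, overlaps and start sites were tried. The assignment of peaks to genes was run on simulated peaks planted near isolated start sites, with 1 TSS per gene. There the nearest gene was fixed beforehand, so the run does not cover genes with close neighbours. Scripts ran in Python 3.11.15 (pandas 2.3.3, numpy 2.4.6, matplotlib 3.10.9, scipy 1.17.1).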

Additional observations from a re-analysis of the deposited data

How the results depend on the processing

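The 12 members with a series peak, nearest or within 500 bp, became 7 with the 50% of series peaks of highest signal (all genes: 3.74% nearest and 2.35% within 500 bp), and 7 to 10 with the list of 1 replicate alone. The share of member summits upstream, 100% in the series list, was 90% in the conservative list and 85.7% to 90% with 1 replicate, with RpS21 downstream in the conservative list and in replicate 2, and RpL14 in replicate 1. Of the 12 peaks, 9 met replicate 1 and 5 met replicate 2. The median signal of 108 was 131 in the conservative list, and 80.6 to 83.8 in a replicate's own list, whose scale may differ. ACAGTG was at 5 member summits within 250 bp in place of 3 within 100 bp (all series peaks: 37.5%), and at 2 to 3 with 1 replicate. A TCT initiator was found at 18 members with its C within 2 bp of a TSS (all genes: 2.04%) and at 30 with 1 TSS per gene (3.47%), in place of 55. The other 25 settings stayed within 1.5 times the value reported or within its spread. Depth is unknown, so a member without a peak was not detected in these lists, which does not show that Doc2 is absent there. No paired analysis was possible because there is 1 group.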
